A study of Mus musculus with 6 samples.

Results

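The nuclear-encoded genes of oxidative phosphorylation were taken from the deposited table by their symbols. They comprised the Nduf genes of the A, B, C, S and V series, Sdha to Sdhd, the Uqcr genes, the Cox4 to Cox8 genes and the Atp5 genes, with pseudogene symbols left out. This gave 85 genes of the 24972 listed. There were 38 for complex I, 4 for complex II, 8 for complex III, 18 for complex IV and 17 for complex V, which is ATP synthase. Naming also took in a few genes that are not constitutive subunits, among them the supercomplex factor Cox7a2l, Atp5s (now named Dmac2l) and the paralogs Ndufa4l2 and Ndufb4c. Subunits under other names, such as Ndufab1 and Cyc1, are given further on. The 13 subunits encoded by mitochondrial DNA were not matched in the table and are not analysed here.

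Complexes I and II pass electrons from NADH and succinate to ubiquinone, complex III passes them on to cytochrome c, and complex IV hands them to oxygen. Complexes I, III and IV pump protons across the inner mitochondrial membrane as they do so, and complex V lets the protons flow back to make ATP. Most subunits are encoded in the nucleus, translated in the cytosol and imported, and basal keratinocytes use this system beside an active glycolysis.

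RNA was sequenced after poly(A) selection from basal epidermal cells sorted from the back skin of mice, in a study of how epidermal stem cells adapt to mechanical stress. Every animal had the genotype p63CreER, Piezo1 fl/fl, R26-mTmG, which combines a tamoxifen-inducible Cre driven in p63-expressing basal cells, floxed alleles of the mechanically gated channel Piezo1 and a Cre-switched fluorescent reporter. The cKO group (n = 3) had been given tamoxifen, 20 ug in each of 3 injections at postnatal days 45 to 52, and the control group (n = 3) had been given vehicle. Loss of Piezo1 and exposure to tamoxifen therefore cannot be told apart. Separate animals are not named for the 3 libraries of a group, so the spread between them may be partly technical. Cells in the sort that do not express p63, such as T cells and Langerhans cells, would not be expected to carry the deletion.

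Piezo1 stood at 380, 565 and 399 normalized counts in cKO replicates 1, 2 and 3, against 806, 1098 and 1476 in control replicates 1, 2 and 3. All 3 cKO values lay below the control values, and an exact permutation of the 6 libraries gave p = 0.1 (two-sided), the lowest value available with 3 a group. The basal keratin Krt5 was high in every library, at 230864 to 266942 normalized counts in cKO and 228148 to 260877 in control. Krt14 was at 117197 to 203481 in cKO and 129245 to 149201 in control, and Trp63 at 7880 to 9939 in cKO and 5440 to 7312 in control. The libraries were not equally deep: about 1.05, 15.6 and 14.2 M reads for cKO and 22.4, 24.5 and 20.8 M reads for control, estimated from the smallest step between values. In cKO replicate 1 a read was worth 12.3 normalized counts, and 3 reads came to 36.8, against 1.47 to 2.28 elsewhere. The oxidative phosphorylation genes had a median of about 102 reads each in that library and at most 821. They took 1.15, 0.631 and 0.847% of all normalized counts in cKO and 0.679, 0.763 and 0.654% in control, and in such bulk samples fewer cells of a type and less RNA per cell cannot be told apart. Cytosolic ribosomal protein genes took 15.8, 7.20 and 9.23% in cKO and 7.43, 9.44 and 7.79% in control. Both shares were highest in cKO replicate 1 and lowest in cKO replicate 2. In cKO replicate 3 the oxidative phosphorylation share was above every control, and the ribosomal share was below control replicate 2. Because cKO replicate 1 stood apart in depth and in these shares, counts, medians and fold changes below are given with and without it.

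Proximal promoters are shown because several of these genes share sequence there that the choice by name did not use. Windows from 250 bases before to 50 bases after the annotated start (RefSeq, GRCm38.p6) were found for 68 of the 85 genes, 73 windows in all, and were searched on both strands. NRF1 is a transcription factor known for binding promoters of respiratory chain genes, and its palindrome, GCGCA followed directly by TGCGC, lay in 5 windows, 6.85% of them, against 2.03% of 12429 windows of tested genes and 0.971% of all 32851 windows. The looser form, GCGCA and GCGC with any single base between them, includes the palindrome and lay in 18 windows of 17 genes, 24.7% against 9.88% of windows of tested genes and 4.60% of all. The YY1 sequence AAGATGGC lay in 13.7% of the windows, against 4.37% and 2.75%. TCAAGGTCA, bound by estrogen-related receptors, lay in 2 windows, of Atp5g3 and Sdhd, 2.74% against 0.274% and 0.423%. The ETS sequence CCGGAAGT was in 6.85% against 8.02% and 3.89%, and the SP1 sequence GGGCGGG in 34.2% against 46.6% and 25.6%. A match is a description of these letters and does not show that a factor binds. The 120 bases before the start are printed for 3 genes with the full palindrome (Atp5g2, Atp5k, Ndufa11), for Ndufb4 with 2 copies of the looser form, and for Atp5g3 with the estrogen-related receptor sequence. Letters run 5′ to 3′ on the gene's strand, and capitals mark matches to any of these motifs on either strand.
Atp5g2, chr15:102671048-102671167, minus strand: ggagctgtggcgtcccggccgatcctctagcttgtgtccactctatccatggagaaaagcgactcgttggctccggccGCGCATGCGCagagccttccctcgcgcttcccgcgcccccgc
Atp5k, chr5:108434400-108434519, minus strand: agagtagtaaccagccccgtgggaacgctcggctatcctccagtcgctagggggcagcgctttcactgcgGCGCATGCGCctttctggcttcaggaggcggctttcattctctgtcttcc
Ndufa11, chr17:56717642-56717761, plus strand: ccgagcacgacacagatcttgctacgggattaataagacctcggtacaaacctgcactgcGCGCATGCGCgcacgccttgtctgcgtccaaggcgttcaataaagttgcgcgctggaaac
Ndufb4, chr16:37654369-37654488, minus strand: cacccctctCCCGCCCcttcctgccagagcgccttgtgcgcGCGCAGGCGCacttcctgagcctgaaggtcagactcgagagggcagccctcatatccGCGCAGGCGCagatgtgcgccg
Atp5g3, chr2:73911327-73911446, minus strand: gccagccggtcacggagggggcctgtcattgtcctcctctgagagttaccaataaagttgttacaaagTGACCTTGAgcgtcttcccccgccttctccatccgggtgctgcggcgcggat
The 16 tested genes with the looser NRF1 sequence had a median log2 fold change of 0.26, against 0.31 for the 48 tested genes whose windows lacked it, and without cKO replicate 1 the medians were -0.00 and -0.08.

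No oxidative phosphorylation gene passed adjustment between cKO and control. Of the 85, 78 had a mean of at least 10 normalized counts and were tested within a fit of 12239 genes, in which 0 genes passed (0%) and the smallest adjusted p among the 78 was 0.744 (limma, Benjamini-Hochberg). At an unadjusted p under 0.05 there was 1 of 78, Ndufa4l2, which was higher in cKO. Of all tested genes 4.93% reached that level, 1.47% higher and 3.46% lower in cKO. The fitted value was higher in cKO for 67 of 78, against 47.1% of all tested genes, with a median log2 fold change of 0.26 against -0.03 for all. With limma-voom on approximate reads 0 of 78 passed, 1 had an unadjusted p under 0.05, 55 were higher and the median was 0.05. The cKO and control ranges overlapped for each of the 78, whereas 10.9% of all tested genes had ranges that did not overlap, 5.16% with higher and 5.7% with lower cKO values.

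The higher fitted values rested on the shallow library. Without cKO replicate 1, 22 of 78 were higher and 56 lower in cKO, the median was -0.06 (all genes -0.00), and 49.5% of all 12202 genes tested were higher. In that comparison 0 of 78 passed (0% of all genes), and 0 of 78 had an unadjusted p under 0.05, against 4.61% of all genes (2.14% higher and 2.48% lower). Ranges did not overlap for 1 gene, Cox8a, which was lower in cKO, while 19.6% of all genes had ranges that did not overlap, 10.2% higher and 9.4% lower. The 95% interval of the fold change lay within 2-fold in either direction for 74 of 78 genes without cKO replicate 1, against 8037 of all 12202. With that library it did so for 38 of 78, a share near that of all tested genes (5996 of 12239).

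The gene set stood high or low together in single libraries. The median log2 difference from the control mean was 0.95, -0.26 and 0.14 in cKO replicates 1, 2 and 3, and -0.09, 0.12 and -0.04 in control replicates 1, 2 and 3. The shallow library thus stood high, and the other cKO libraries lay on either side of the controls. cKO replicate 1 held the highest of the 6 values for 65 of 78 genes, and cKO replicate 2 the lowest for 62. Among the 5 deeper libraries, cKO replicate 3 was highest for 39 genes and control replicate 2 for 34. In cKO replicate 1, 36 genes were more than 2-fold above the control mean and 13 more than 3-fold, and 9 were below it. In both deeper cKO libraries together, 73 of 78 genes stayed within 1.5-fold of the control mean.

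**Figure D1:**
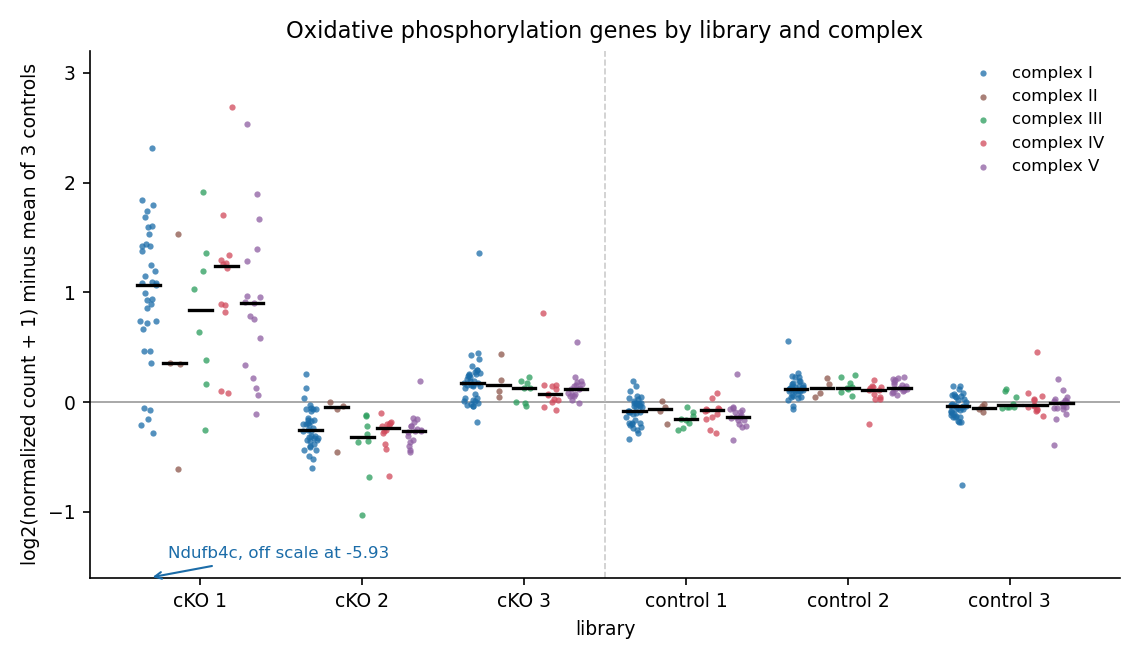
Each point is a tested oxidative phosphorylation gene, placed by library and complex, with its log2(normalized count + 1) minus the mean of the 3 control libraries on the vertical axis and black bars at the medians. Points of cKO 1 spread mostly above 0 (complex medians 0.35 to 1.24), those of cKO 2 mostly below (-0.32 to -0.05), and Ndufb4c in cKO 1 lies off the scale at -5.93.

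Complex I, the NADH dehydrogenase, had 37 tested genes, of which 33 had higher fitted values in cKO with all 6 libraries (median log2 fold change 0.33) and 15 without cKO replicate 1 (median -0.03). None passed adjustment in either comparison. Summed over the complex, normalized counts were 43112, 17641 and 24489 in cKO and 19342, 22906 and 19507 in control. These sums follow the gene names and so take in Ndufa4 and its paralog Ndufa4l2. Ndufa4l2 alone held 6815, 1632 and 3510 in cKO and 1564, 2019 and 812 in control. The 7 core subunits that carry the flavin and iron-sulfur clusters had medians of 0.28 and, without cKO replicate 1, -0.03, and the 30 other tested genes had 0.34 and -0.06.

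Among the core subunits, Ndufs1, the largest iron-sulfur subunit, was at 690, 794 and 951 normalized counts in cKO, against 902, 887 and 743 in control (log2 fold change -0.06, SE 0.19, and 0.05 without cKO replicate 1). The groups overlapped, and cKO replicate 1 was the lowest library. Ndufv1, which binds NADH and the flavin, was at 1358, 894 and 1002 in cKO, against 928, 1062 and 969 in control. Its partner Ndufv2 was at 1231, 591 and 803 in cKO, against 657, 718 and 618 in control. Log2 fold changes were 0.12 for Ndufv1 and 0.33 for Ndufv2, and -0.06 and 0.06 without cKO replicate 1. The core subunits Ndufs3, Ndufs7 and Ndufs8 had log2 fold changes of 0.40, 0.40 and 0.28, and of 0.05, -0.03 and -0.12 without cKO replicate 1.

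Ndufa4l2 had the smallest p of the gene set. This paralog of Ndufa4 is known as a target of hypoxia-inducible factor. It was measured at 6815, 1632 and 3510 normalized counts in cKO, against 1564, 2019 and 812 in control, and the ranges overlapped because cKO replicate 2 lay below control replicate 2. Its log2 fold change of 1.31 (SE 0.54, 95% interval 0.06 to 2.56, adjusted p = 0.744 in limma) became 0.81 (SE 0.47, 95% interval -0.31 to 1.93) without cKO replicate 1. The gene lies on chromosome 10 at 127514967 to 127517154 on the plus strand (GRCm38, GENCODE M21). Per kilobase of transcript, over the 5 deeper libraries, it averaged 2042 normalized counts, against 1142 for Ndufa4, so the paralog was on average the more abundant of the pair, although control replicate 3 alone had more of Ndufa4. Ndufa4, now counted with complex IV, was at 1175, 588 and 650 in cKO, against 585, 844 and 817 in control. Its log2 fold change of 0.05 (SE 0.30) became -0.26 (SE 0.20) without cKO replicate 1.

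Among the accessory subunits, Ndufv3 was measured at 1078, 532 and 736 normalized counts in cKO, against 531, 518 and 575 in control. Its log2 fold change was 0.47 (SE 0.26), and 0.21 (SE 0.18) without cKO replicate 1. The X-linked Ndufa1, a membrane-arm subunit, was at 1001, 369 and 428 in cKO, against 363, 425 and 372 in control. Ndufb11, also X-linked, was at 2589, 863 and 1244 in cKO, against 1038, 1486 and 1222 in control. Both showed the common pattern of a high cKO replicate 1 and otherwise overlapping values, with log2 fold changes of 0.49 for Ndufa1 and 0.19 for Ndufb11, and of 0.04 and -0.25 without that library. Ndufb4c, whose annotated transcript has no intron, went the other way, at 0, 65.7 and 72.0 in cKO, against 52.2, 66.5 and 62.2 in control. At the depth of cKO replicate 1 its control mean is worth about 4.91 reads, and without that library its log2 fold change was 0.19 (SE 0.27) in place of -1.85 (SE 1.54). How reads were divided between Ndufb4c and Ndufb4 is not given in the sources used here. Ndufs5 was listed at 0 in every library.

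**Figure D2:**
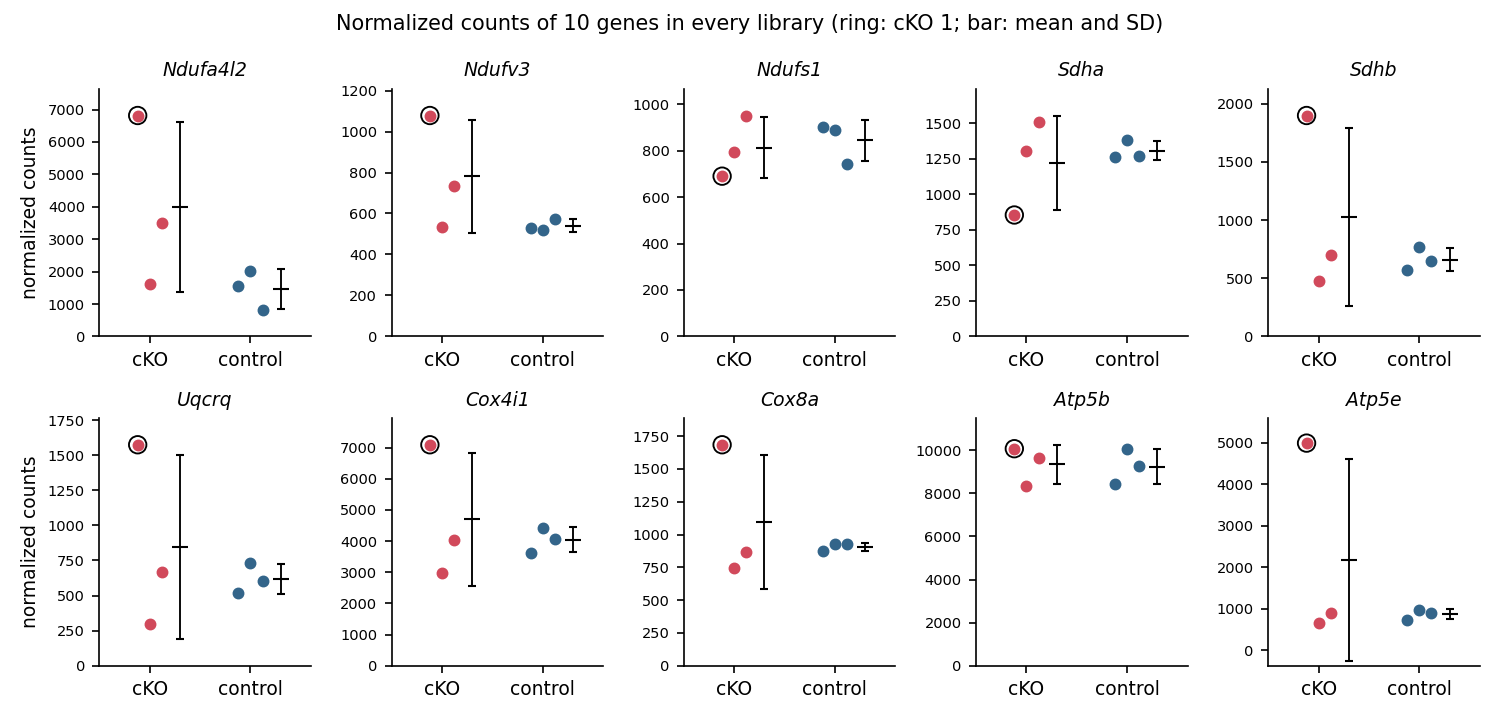
Normalized counts of 10 genes in each of the 3 cKO libraries (red, left) and 3 control libraries (blue, right), with the mean and SD beside each group and a ring around cKO 1. The ringed point is the highest for 8 of the 10 genes, is the lowest for Ndufs1 and Sdha, and without it the groups overlap for 9 of the 10, Cox8a being the exception.

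Complex II, succinate dehydrogenase, also belongs to the TCA cycle and is built from nuclear-encoded subunits alone. Of its 4 genes, 3 were higher in cKO in both comparisons, with medians of 0.18 and 0.05, and none passed. The flavoprotein subunit Sdha was measured at 855, 1304 and 1506 normalized counts in cKO, against 1265, 1383 and 1273 in control, so that here cKO replicate 1 was the lowest library. Its iron-sulfur partner Sdhb was at 1899, 479 and 703 in cKO, against 570, 765 and 648 in control, with cKO replicate 1 the highest and cKO replicate 2 the lowest. The membrane anchors varied less between libraries. Sdhc was at 1128, 860 and 911 in cKO, against 833, 989 and 829 in control, and Sdhd at 708, 533 and 756 in cKO, against 562, 576 and 532 in control. Log2 fold changes were -0.14 for Sdha, 0.39 for Sdhb, 0.12 for Sdhc and 0.24 for Sdhd, and 0.10, -0.18, 0.01 and 0.19 without cKO replicate 1.

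Complex III, the cytochrome bc1 complex, had 8 genes, of which 5 were higher in cKO with all libraries (median 0.19) and 2 without cKO replicate 1 (median -0.16). None passed. The Rieske iron-sulfur protein Uqcrfs1 was measured at 1048, 763 and 935 normalized counts in cKO, against 783, 1025 and 1012 in control (log2 fold change -0.04, SE 0.20). The core protein Uqcrc1 was at 3973, 2339 and 2975 in cKO, against 2397, 2778 and 2474 in control (0.25, SE 0.23). Groups overlapped for both genes, whose log2 fold changes were -0.14 and 0.05 without cKO replicate 1. Uqcr11 was at 2380, 392 and 712 in cKO, against 567, 653 and 673 in control, with a log2 fold change of 0.47 and of -0.25 without cKO replicate 1. Uqcrq, another accessory subunit, was at 1575, 299 and 671 in cKO, against 521, 730 and 607 in control. Its log2 fold change of 0.15 (SE 0.53) became -0.45 (SE 0.34, 95% interval -1.27 to 0.37), the lowest of the 78 without cKO replicate 1. There cKO replicate 2 lay below the control range and cKO replicate 3 inside it. The hinge protein Uqcrh and Uqcr10 had log2 fold changes of 0.22 and 0.42, and of -0.18 and 0.04 without that library.

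Complex IV, cytochrome c oxidase, had 12 tested genes, of which 11 were higher in cKO with all libraries (median 0.36) and 1 without cKO replicate 1 (median -0.07). None passed. Cox4i1, a nuclear subunit that joins the enzyme early in its assembly, had the highest level per kilobase of all the genes over the 5 deeper libraries (5072 normalized counts). It was measured at 7095, 2987 and 4040 normalized counts in cKO, against 3623, 4429 and 4069 in control. Its log2 fold change was 0.13 (SE 0.32), and -0.21 (SE 0.20) without cKO replicate 1. Cox6b1, on the side of the enzyme that faces cytochrome c, was at 3625, 979 and 1140 in cKO, against 1147, 1140 and 1060 in control. Cox6c was at 2597, 935 and 1175 in cKO, against 989, 1144 and 1127 in control. Cox7a2l, which helps assemble supercomplexes, was at 5625, 2549 and 3077 in cKO, against 2499, 3496 and 3230 in control. In all 3 genes cKO replicate 1 was the highest library and the other libraries overlapped. Their log2 fold changes were 0.52 for Cox6b1, 0.39 for Cox6c and 0.21 for Cox7a2l, and -0.08, -0.05 and -0.12 without cKO replicate 1. In the X-linked Cox7b the highest library was cKO replicate 3, at 879, 732 and 925 in cKO, against 784, 892 and 813 in control (log2 fold change 0.02, SE 0.17, and -0.01 without cKO replicate 1).

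Among the 78 tested genes, Cox8a alone had both deeper cKO libraries below all controls. It was measured at 1684, 747 and 864 normalized counts in cKO, against 872, 927 and 924 in control. The log2 fold change was 0.18 (SE 0.30), and -0.18 (SE 0.14, adjusted p = 0.848 in limma) without cKO replicate 1. The gene lies on chromosome 19 at 7215153 to 7217616 on the minus strand.

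The tissue isoforms of complex IV were listed at unlike levels. The widely expressed Cox4i1, Cox6a1, Cox6b1, Cox7a2, Cox7b and Cox8a were each at 732 normalized counts or more in every library. Of these, Cox6a1 and Cox7a2 had log2 fold changes of 0.34 and 0.39, and of -0.16 and -0.02 without cKO replicate 1. The heart and skeletal muscle isoform Cox6a2, the Cox7b2 isoform and Cox8c were listed at 0 in every library. Since the constitutive Ndufs5 was listed at 0 as well, a listed 0 cannot be read as absence of the transcript in this table. Muscle-type Cox7a1 reached 0.762 in cKO and 4.84 in control at most, Cox8b 0.728 and 2.02, and the lung isoform Cox4i2 0 and 1.01. No difference was tested at these values. Cox6b2, known from testis, was the only alternative isoform tested, at 83.9, 7.25 and 22.1 in cKO, against 12.5 ± 3.91 in control (SD, n = 3). Its value in cKO replicate 1 corresponds to about 6.84 reads, and the log2 fold change of 0.95 (SE 0.93) became 0.07 (SE 0.62) without that library.

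Complex V, ATP synthase, had 17 tested genes, of which 15 were higher in cKO with all libraries (median 0.21) and 1 without cKO replicate 1 (median -0.06). None passed. The catalytic beta subunit Atp5b was measured at 10078, 8328 and 9644 normalized counts in cKO, against 8428, 10049 and 9278 in control (log2 fold change 0.01, SE 0.19, 95% interval -0.43 to 0.46). The alpha subunit Atp5a1 was at 7608, 7240 and 8496 in cKO, against 7290, 9167 and 8200 in control (-0.08, SE 0.19). The central stalk subunit Atp5c1 was at 2387, 1843 and 2261 in cKO, against 1948, 2199 and 1999 in control (0.07, SE 0.18). In cKO replicate 1, Atp5a1 thus lay inside the control range and Atp5b and Atp5c1 above it. Without that library the log2 fold changes were -0.04 for Atp5b, -0.06 for Atp5a1 and -0.00 for Atp5c1.

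Other subunits of the same complex differed in how far they stood from the controls in that library. Atp5e, the epsilon subunit of the central stalk, was measured at 4991, 655 and 894 normalized counts in cKO, against 737, 978 and 888 in control. Its value in cKO replicate 1 was 5.75-fold above the control mean, and the log2 fold change of 0.73 (SE 0.68) became -0.17 (SE 0.20) without that library. Atp5k, the e subunit of the membrane part, was at 1670, 374 and 508 in cKO, against 432, 516 and 403 in control (log2 fold change 0.61, and -0.04 without cKO replicate 1). The 3 genes for the c subunit, whose ring turns with proton flow, encode the same mature protein behind different import sequences. Atp5g2 made up 40.5, 45.2 and 42.9% of their summed counts in cKO, against 46.0, 40.5 and 40.1% in control. Atp5g3 made up 33.6, 34.3 and 35.6% in cKO, against 35.0, 38.2 and 35.6% in control, and Atp5g1 25.9, 20.5 and 21.6%, against 19.0, 21.3 and 24.3%. The mix of the 3 genes thus overlapped between groups even though all 3 were high in cKO replicate 1. Log2 fold changes of Atp5g1, Atp5g2 and Atp5g3 were 0.32, 0.27 and 0.18, and -0.16, -0.07 and -0.19 without that library. Atp5s, the least abundant per kilobase of the tested Atp5 genes at 50.8, was at 131, 76.1 and 97.7 in cKO, against 79.9, 72.7 and 50.6 in control. Its log2 fold change was 0.57 (SE 0.34), and 0.37 (SE 0.30) without cKO replicate 1, the second highest of the 78 after Ndufa4l2.

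**Figure D3:**
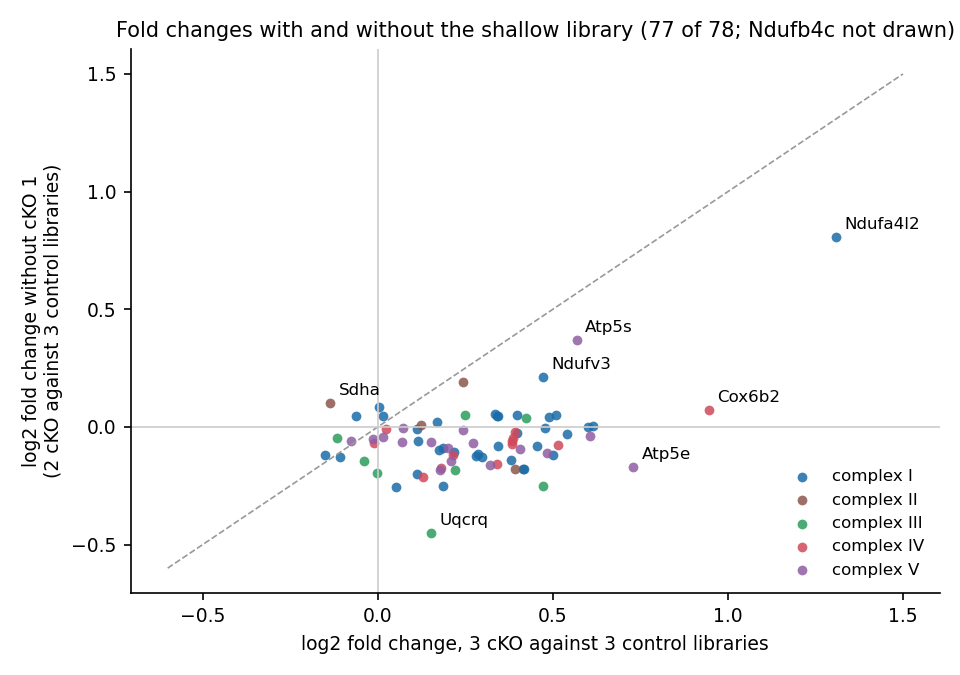
Log2 fold change of each tested gene with all 6 libraries (horizontal) and without cKO replicate 1 (vertical), coloured by complex, with a dashed line where both are equal. Most points lie right of 0 but around or below 0 on the vertical axis, Ndufa4l2 lies apart at 1.31 and 0.81, and Ndufb4c (-1.85 and 0.19) is not drawn.

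Within the gene set, how far a gene stood above the controls in cKO replicate 1 went with transcript length. The 24 genes of up to 600 bases had a median log2 difference of 1.36 in that library, the 26 of 601 to 1000 bases 1.01, the 22 of 1001 to 2000 bases 0.68 and the 5 of 2001 to 3000 bases -0.11. Sdhc, the single gene over 3000 bases, was at 0.36. All tested genes of the same lengths ran the same way, with medians of 1.07, 0.77, 0.29 and -0.05, and -0.35 above 3000 bases. At each length up to 2000 bases the oxidative phosphorylation genes lay above the median of all genes, and cytosolic ribosomal protein genes had medians of 1.18, 1.02 and 0.89 in the same 3 classes. The 3 ribosomal protein genes of 2001 to 3000 bases had a median of 0.38, and the 2 over 3000 bases 0.98. The oxidative phosphorylation genes had a median length of 769 bases, against 2873 for all tested genes, so as a set they fall in the classes that were high. Spearman's rho between the difference in cKO replicate 1 and log2 length was -0.49 over the 78 genes and -0.31 over 12156 tested genes with a known length, and Pearson's r was -0.25 and -0.19, a description across genes of the same libraries. With trends on length and GC content removed from every library, 64 of 78 genes were higher in cKO and the median was 0.15. With that done and cKO replicate 1 left out, an alternative added after the data were seen, 45 of 78 were higher and the median was 0.02.

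**Figure D4:**
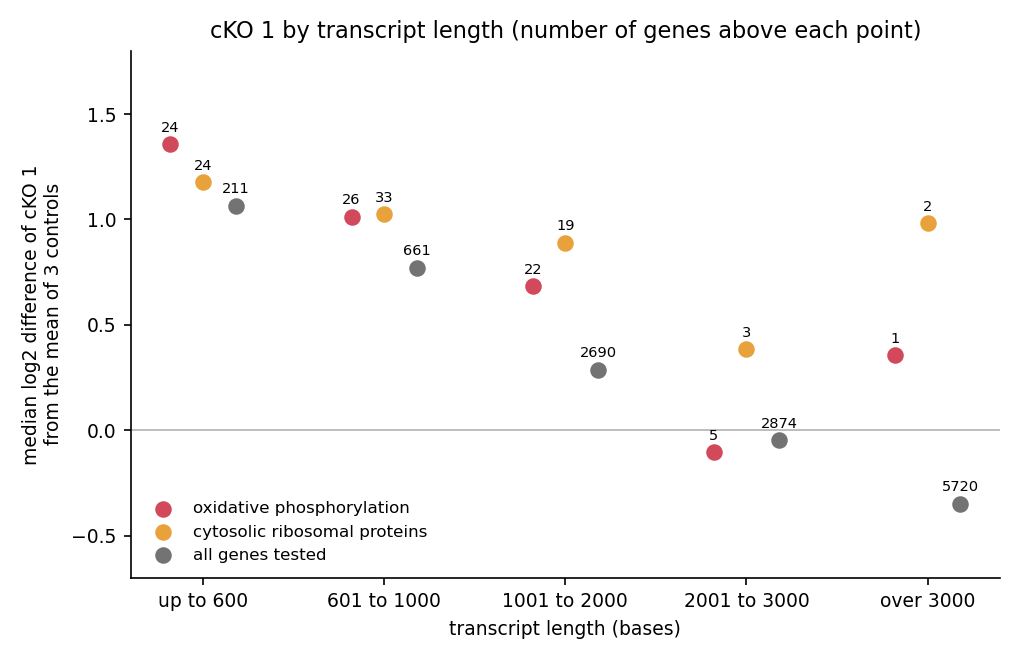
Median log2 difference of cKO replicate 1 from the control mean (vertical) for oxidative phosphorylation genes, cytosolic ribosomal protein genes and all tested genes, by transcript length in bases (horizontal), with the number of genes above each point. For all genes the medians run from 1.07 at up to 600 bases to -0.35 over 3000 bases, and the oxidative phosphorylation genes run from 1.36 to -0.11 over the classes with at least 5 genes.

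The groups also differed in the sexes they held. Xist was high in cKO replicates 1 and 2 and control replicate 1, while Ddx3y was high in cKO replicate 3 and control replicates 2 and 3. Among the deeper libraries of the first kind, cKO replicate 2 was above control replicate 1 for 10 of 78 genes, against 49.6% of all tested genes, with a median log2 difference of -0.15 (all genes -0.00). Among those of the second kind, cKO replicate 3 was above the mean of control replicates 2 and 3 for 52 of 78 genes, against 51.1% of all, with a median of 0.08 (all genes 0.01). It was above both of those controls for 41 of the 78 genes, a higher share than among all tested genes (5022 of 12239, or 41%). The direction thus differed between the comparisons within each sex, each of which rests on 1 cKO library, and the difference in direction was not tested. With sex as a covariate the median over 6 libraries was 0.26 and 0 of 78 genes passed (limma).

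Genes that build or serve the same system were then read as lists, and 0 genes of any list passed adjustment in limma with 6 libraries or without cKO replicate 1. Of 6 subunits and partners outside the naming rule, 5 were higher in cKO (median 0.22) and 3 without cKO replicate 1 (median -0.04). Ndufab1, the acyl carrier protein bound to complex I, was at 874, 244 and 248 in cKO, against 224, 247 and 218 in control. Cyc1, the cytochrome c1 of complex III, was at 1178, 709 and 891 in cKO, against 682, 838 and 776 in control. In both, cKO replicate 1 was the highest library and the other libraries overlapped.

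The median of the assembly factors was above 0 in both comparisons, but the direction differed within each sex, where each comparison rests on 1 cKO library. cKO replicate 2 was above control replicate 1 for 19 of 47 (median log2 difference -0.08), against 49.6% of all tested genes. cKO replicate 3 was above the mean of control replicates 2 and 3 for 43 of 47 (median 0.33), against 51.1% of all. Of 47 tested, 39 were higher in cKO with 6 libraries (median 0.32) and 39 without cKO replicate 1 (median 0.13), where 2 of 47 had an unadjusted p under 0.05, a share near the 4.61% of all genes. These were Atpaf2 and Taco1, the first at 137, 168 and 192 in cKO, against 135, 123 and 115 in control, and the second at 37.1, 66.8 and 91.5 in cKO, against 54.3, 34.3 and 37.8 in control. Tmem70, which helps assemble ATP synthase, was at 242, 202 and 243 in cKO, against 165, 186 and 144 in control, so that all 3 cKO values were above the controls. Its log2 fold change was 0.47 (SE 0.22, adjusted p = 0.744 in limma), and 0.43 without cKO replicate 1. Uqcc1, a complex III factor, was at 481, 179 and 220 in cKO, against 194, 151 and 136 in control. The mitochondrial ribosome, which translates the mitochondrially encoded subunits, had 70 of 78 genes higher (median 0.34) and 53 without cKO replicate 1 (median 0.05). Here too cKO replicate 2 was above control replicate 1 for only 17 of 78 (median -0.13). cKO replicate 3 was above the mean of control replicates 2 and 3 for 69 of 78 (median 0.26). Mrpl19 was at 273, 220 and 267 in cKO, against 214, 181 and 168 in control, and Mrpl34 at 181, 36.1 and 81.7, against 35.2, 44.3 and 35.1. Cytosolic ribosomal protein genes had 78 of 81 higher (median 0.26) and 4 without cKO replicate 1 (median -0.12). Rps2 was at 12935, 6828 and 6950 in cKO, against 5885, 6029 and 6460 in control, and Rps27 at 0, 19.8 and 30.9 in cKO, against 42.6, 42.4 and 27 in control. The control values of Rps27 are near 3 reads at the depth of cKO replicate 1 (36.8), so its 0 there is not informative.

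The other mitochondrial and metabolic lists did not share the high median of cKO replicate 1. Their transcripts were also longer, with median lengths of 2544 bases for the TCA cycle, 3705.5 for regulators, 2132 for glycolysis and 1323 for protein import, against 769 for oxidative phosphorylation. The mitochondrial ribosome (1253 bases) and assembly factors (1567.5 bases) were high in that library at lengths near those of protein import. The part of length in this contrast was not tested. Of 17 tested TCA cycle and pyruvate dehydrogenase genes, 4 were higher in cKO (median -0.13) and 2 without cKO replicate 1 (median -0.09). Pdha1, the catalytic subunit of pyruvate dehydrogenase that feeds the cycle, was at 1612, 2356 and 2173 normalized counts in cKO, against 2594, 3080 and 3264 in control. All 3 cKO values were below the controls (log2 fold change -0.55, SE 0.21, adjusted p = 0.744 in limma), and its partner Pdhb gave -0.25 (SE 0.17). Without cKO replicate 1 the values were -0.39 for Pdha1 and -0.17 for Pdhb. Of 16 mitochondrial regulators, 6 were higher (median -0.13) and 8 without cKO replicate 1 (median 0.04). Gabpb1, a subunit of the ETS factor that binds respiratory gene promoters, was at 329, 297 and 231 in cKO, against 370, 380 and 470 in control (-0.51, SE 0.22), and the coactivator-related Pprc1 gave -0.53 (SE 0.27). With that library left out, Gabpb1 was at -0.62 and Pprc1 at -0.44. Of 26 protein import genes, 13 were higher (median 0.01) and 8 without cKO replicate 1 (median -0.05). Timm17b had a log2 fold change of 0.59 (SE 0.41), which fell to 0.09 without that library, and Timm22 one of 0.56 (SE 0.39), which fell to 0.13. Of 18 glycolysis genes, 11 were higher (median 0.05) and 10 without cKO replicate 1 (median 0.02). The glucose transporter Slc2a1 was at 3267, 4320 and 4255 in cKO, against 5157, 5136 and 5999 in control (-0.47, SE 0.19, and -0.34 without cKO replicate 1). The aldolase isoform Aldoc gave 0.59 (SE 0.29), and 0.38 without that library.

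**Figure D5:**
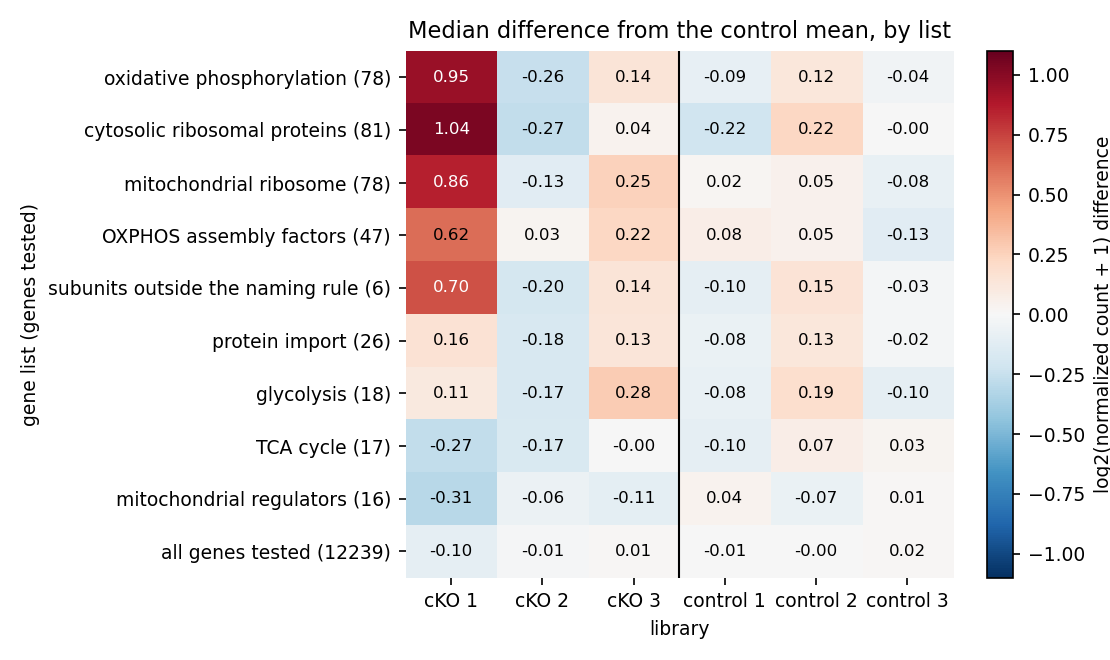
Median log2(normalized count + 1) difference from the mean of the 3 control libraries for each gene list (one line per list, genes tested in brackets) in the 3 cKO libraries (left) and 3 control libraries (right), printed and coloured from blue (lower) to red (higher). cKO 1 is at 0.62 to 1.04 for oxidative phosphorylation, its other subunits and assembly factors and both kinds of ribosome, and at -0.31 to 0.16 for the other lists and all genes. Atp5mpl is counted both in oxidative phosphorylation and in the subunits outside the naming rule.

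Markers of other cells were summed beside these results. The 7 T cell markers summed to 484, 318 and 940 normalized counts in cKO and 128, 76.6 and 114 in control, and the 7 Langerhans and myeloid markers to 2789, 2253 and 10673 in cKO and 1380, 1813 and 1730 in control, so both were highest in cKO replicate 3, the deeper cKO library with the higher oxidative phosphorylation values. Of these 14 markers, Ptprc, Itgax and Lyz2 were at 0 in cKO replicate 1 and none was at 0 in cKO replicate 3. The 6 skeletal muscle markers summed to 116, 17.6 and 17.9 in cKO and 13.4, 9.02 and 19.7 in control, and 5 of them were at 0 in cKO replicate 1. The muscle isoforms Cox6a2, Cox7a1 and Cox8b were at 0 there too. A read in that library was worth 12.3 normalized counts, above every value of these isoforms elsewhere. Their 0 there therefore cannot separate absence from levels like those of the other libraries. The marker sums of 9.02 to 19.7 elsewhere also lie below 3 reads there (36.8). The 5 hair follicle markers summed to 162432, 77177 and 81503 in cKO and 96406, 108977 and 93200 in control, highest in cKO replicate 1. The 5 suprabasal keratinocyte markers listed summed to 78236, 96807 and 92583 in cKO and 43385, 55103 and 100635 in control. The 5 melanocyte markers summed to 12.3, 62.7 and 75.9 in cKO and 21.6, 21.2 and 18.8 in control. The part of these cells in any library, and of immune cells in the values of cKO replicate 3, was not tested.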

How the data were processed

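Poly(A) RNA of 3 cKO and 3 control libraries was measured as 1 value per gene. These values are a normalized count, a signal with no negative values that the authors deposited as a table of all 6 libraries. STAR, DESeq2 and GRCm38 appear in the submitters' processing notes with no version or role. Which annotation and counting program were used, and whether strand was, is not given in the sources used here. Low values recur at multiples of a step, taken as 1 read, and the total divided by the step as the approximate depth. Whole reads could not be recovered, so the test for counts was not used. The approximate depths cover counting error only.

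Values were tested as log2(value + 1), which understates changes of weak genes, for genes with a mean of at least 10, with limma 3.58.1 (R 4.3.3, statmod 1.5.0, trend and robust empirical Bayes, two-sided) over all 6 libraries without covariates. Benjamini-Hochberg adjustment ran over all genes tested at a threshold of 0.05. A difference from the control mean is on the same log2 scale, and fold changes are cKO minus control. Per-kilobase levels divide by the median length of GENCODE M21 transcripts paired with RefSeq, found for 99.3% of tested genes, and depend on which transcripts are annotated. The steps were tested on simulated data.

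Genes, lists and markers were chosen with earlier results of these data known. Genes named are, per complex, the 3 of smallest p and the 2 most abundant per kilobase, catalytic subunits, isoform sets, X-linked members, the 2 highest and 2 lowest without cKO replicate 1, up to 2 of smallest p per related list, and Piezo1 and identity genes. Ndufb4c, Ndufs5, Ndufa11 and Ndufb4 were added after their values were seen. A catalytic subunit that the rule takes is not reported here. Alternatives were pseudocounts, filters, scalings, removal of length and GC trends (loess span 0.3), quality weights, limma-voom, a replicate block, a sex covariate and leaving out each library.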

Additional observations from a re-analysis of the deposited data

How the results depend on the processing

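No member passed adjustment under any alternative tried except library quality weights. There 1568 of all tested genes passed and 1 member, Ndufv3 (adjusted p = 0.047, limma), 3 of 78 members (3.85%, 2 higher and 1 lower) had an unadjusted p under 0.05, against 31.3% of all genes, and the complex II median was -5.45e-05 on the log2 scale. The weights (8.98 for control replicate 2 and 0.111 for cKO replicate 1) were taken from an estimation that stopped before it converged. A sex covariate left 0 members at an unadjusted p under 0.05, as did leaving out cKO replicate 1 together with the length and GC trends (0) or with a sex covariate (0), both added after the data were seen. Leaving out each library in turn, 0 to 1 of all genes passed, and 0 to 8 members had an unadjusted p under 0.05, with all 8 higher in cKO and found without cKO replicate 2, where they are 10.3% of members, against 12.9% of all genes. The median over members ran from -0.06 without cKO replicate 1 to 0.54 without cKO replicate 2. Under the pseudocounts, filters and scalings it was 0.24 to 0.36. Of 40 named members tested, 26 changed the sign of their fold change without cKO replicate 1, 18 with quality weights and at most 6 under any other single alternative, and none of these had passed. Deviations of same-numbered libraries from their group means had r = 0.09, -0.15 and 0.07 across genes. Since each number holds a single library per group, this cannot settle whether the numbers pair them. With a replicate block 0 members passed, 848 genes had an unadjusted p under 0.05 in place of 603 (limma), and the median was 0.26. Depth limits cKO replicate 1, where 3 reads come to 36.8 normalized counts.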
